A study of Mus musculus with 6 samples.

Results

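Nuclear factor I (NFI) genes and transcription factors that mark the regional identity of forebrain and hippocampal progenitors were followed in cultured mouse neural stem cells after an siRNA against circHIPK2, a circular RNA made from the Hipk2 gene. The set was fixed by name and held 9 genes: the NFI genes Nfia, Nfib, Nfic and Nfix, and the regional factors Lhx2, Emx2, Pax6, Nr2e1 and Zbtb20. Each had 1 entry among the 54884 entries of the deposited table. The cells came from the hippocampus of C57BL/6 embryos at day 14 of gestation and were used between passages 3 and 8. Of the 6 libraries of poly(A)-selected RNA, 3 came from cells infected with a lentivirus carrying the circHIPK2 siRNA and 3 from cells infected with one carrying a control siRNA named circCon. The labels do not state that the 3 libraries of a group are separate cultures. The p-values therefore refer to the spread among the libraries alone, and that spread may be technical. The question put to the 9 genes is whether their level differs when circHIPK2 is targeted.

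NFI proteins bind DNA as dimers through a conserved amino-terminal domain, recognise a palindromic TTGGC motif, and in the developing forebrain act in the passage of radial glia from self-renewal to glial and neuronal differentiation. Loss of Nfia, Nfib or Nfix in mice disturbs hippocampal development, whereas Nfic is best known for its part in tooth root formation. Lhx2, a LIM homeodomain factor, gives cortical progenitors their identity in place of that of the cortical hem. Emx2, a homeodomain factor, is needed for growth of the hippocampus, and Pax6, a paired-box factor, for dorsal forebrain progenitors and their neurons. Nr2e1, also called Tlx, is an orphan nuclear receptor that keeps neural stem cells dividing, and Zbtb20 is a zinc finger repressor that specifies hippocampal CA1 neurons.

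The NFI genes are related copies, so it was asked whether fragments could be shared between them. The stretch of coding sequence most alike in all 4 genes is shown, as annotated in GENCODE M21 on the GRCm38 build, because it is where such sharing would be most likely. Capitals mark bases identical in all 4 genes and lower case marks the rest.
Nfia (chromosome 4, coding bases 90 to 149): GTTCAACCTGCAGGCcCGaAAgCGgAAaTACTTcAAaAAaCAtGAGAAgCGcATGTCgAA
Nfib (chromosome 4, coding bases 93 to 152): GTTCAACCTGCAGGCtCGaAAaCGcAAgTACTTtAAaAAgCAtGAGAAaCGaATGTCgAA
Nfic (chromosome 10, coding bases 159 to 218): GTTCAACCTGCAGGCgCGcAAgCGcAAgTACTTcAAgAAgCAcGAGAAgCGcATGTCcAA
Nfix (chromosome 8, coding bases 66 to 125): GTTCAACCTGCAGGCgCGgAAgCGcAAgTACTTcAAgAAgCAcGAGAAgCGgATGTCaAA
Of these 60 bases 48 were the same in all 4 genes, and all 12 that differed were at the third position of a codon. Nfic and Nfix were the closest pair in this window, with 57 of 60 bases identical, against 51 or 52 for every other pair. Identical runs stayed short even so. The longest run shared by the coding sequences of Nfic and Nfix was 32 nt, that of Nfib and Nfix 21 nt, and that of each other pair 17 nt. Of all 31-nt words in the longest transcript of each gene, 0.0322% in Nfic and 0.0367% in Nfix occurred in another of the 9 genes, and 0% in Nfia and Nfib. The 4 NFI values were therefore treated as separate measurements.

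The 9 genes lie on chromosomes 2 (Lhx2, Pax6), 4 (Nfia, Nfib), 8 (Nfix), 10 (Nfic, Nr2e1), 16 (Zbtb20) and 19 (Emx2). Coordinates are not given, because the submitters' processing notes name the mm9 build and the annotation used here is of GRCm38. The sources used here do not say whether strand was used in counting, so fragments of an overlapping antisense gene could enter a value. The largest such overlap was that of Emx2 with its antisense gene Emx2os, which shares 8.79% of the exonic bases of Emx2. Emx2os had 1.66, 1.56 and 1.72 FPKM in circHIPK2 siRNA libraries 1 to 3, against 1.66, 1.86 and 1.86 FPKM in control libraries 1 to 3. FPKM is fragments per kilobase of transcript, scaled to the mapped fragments of a library, so levels of different genes can be compared. For the other members, the largest overlap with any single gene was 1.86% of the exonic bases, in Nfix.

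The libraries differed between groups in ways outside these genes. A group of 9 entries, at the ribosomal RNA locus or moving with it and chosen with these values known, took 3.24% to 19.9% of all FPKM in the circHIPK2 siRNA libraries and 0.321% to 0.58% in the controls. The 11 liver markers summed to 2.12 to 2.23 FPKM with the circHIPK2 siRNA and to 39.9 to 64.9 FPKM in the controls. The median log2 fold change of all 13702 genes tested was −0.12, and it was −0.0012 after median-of-ratios scaling. What part these differences had in the values below was not tested. Hipk2 itself had 28.3, 28.8 and 23.8 FPKM with the circHIPK2 siRNA, against 31.8, 36.9 and 30.9 FPKM in the controls. This is the level of the mRNA and not of the circle, so it does not check the silencing. Steps in the low FPKM values put the depth of a library at 18320000 to 21900000 fragments. This is a lower estimate, because smaller steps held a larger share of the values.

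The cell type label was checked against markers. Of 8 neural stem cell markers 7 averaged at least 1 FPKM, led by Fabp7, a fatty acid binding protein of radial glia, at 980 FPKM. The exception was Prom1, with 0.915 ± 0.119 FPKM with the circHIPK2 siRNA and 1.02 ± 0.0515 FPKM in the controls (SD, n = 3 each). The stem cell markers summed to 1720 to 2165 FPKM with the circHIPK2 siRNA and 1896 to 2438 FPKM in the controls. Hes5 differed most, with 11.3, 9.58 and 9.34 FPKM against 16.9, 19.2 and 15.4 FPKM (limma, Benjamini-Hochberg adjusted p = 0.0666). Sox2, Vim and Slc1a3 averaged higher with the circHIPK2 siRNA, and no tested stem cell marker was called. All 6 microglial, 5 vascular and 4 fibroblast markers stayed under 1 FPKM in every library, and Cx3cr1, Ptprc and Lum were listed at 0 throughout. Oligodendrocyte lineage markers were abundant, at 623 to 779 FPKM in sum with the circHIPK2 siRNA and 779 to 847 FPKM in the controls, led by the lineage factor Olig1. Mature astrocyte markers summed to 193 to 434 FPKM with the circHIPK2 siRNA and 224 to 409 FPKM in the controls. Neuron markers summed to 93.4 to 105 FPKM against 120 to 130 FPKM, most of it Map2.

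All 9 genes were expressed, each averaging over 1 FPKM. Over the 6 libraries Nfix was highest at 39.5 FPKM, followed by Lhx2 at 26.4, Nfib at 19.3, Nfic at 12.4, Nfia at 12.0, Nr2e1 at 10.4, Pax6 at 9.44, Emx2 at 9.22 and Zbtb20 at 1.88 FPKM. The steps from Nfib to Nfic and from Emx2 to Zbtb20 were larger than the spread, since the ranges of the 6 libraries did not overlap there. Nfix lay above Lhx2 in 6 of 6 libraries and Lhx2 above Nfib in 5 of 6, although in both pairs the ranges overlapped. From Nfic down to Emx2, the order of neighbours did not hold beyond the spread. At these depths, which are lower estimates, 1 FPKM stands for 18.3 to 21.9 fragments per kilobase.

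**Figure D1:**
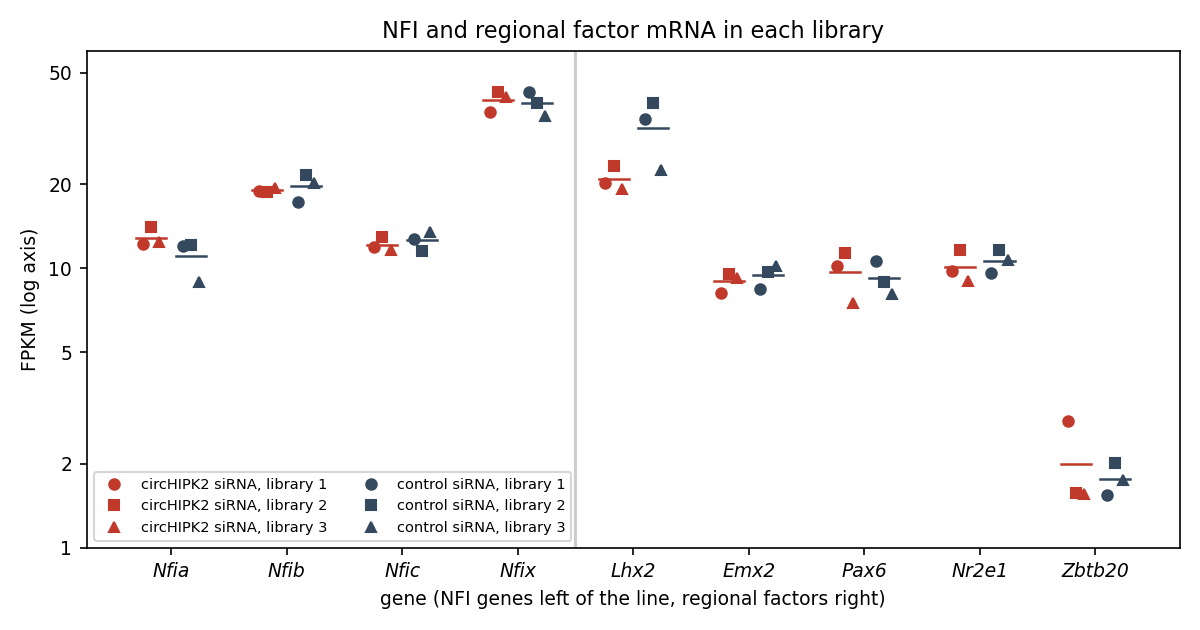
FPKM of the 9 genes on a log axis, with 1 point for each library, circHIPK2 siRNA in red left of control in dark blue; horizontal lines are group means (n = 3 libraries each). Lhx2 shows the widest gap between groups, 20.9 against 31.9 FPKM, with control library 3 at 22.5 FPKM among the circHIPK2 siRNA values.

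None of the 9 genes differed between groups at an adjusted p below 0.05 (limma, adjusted by the Benjamini-Hochberg method across 13702 genes). Over all genes 35 were called, or 0.255% (0.117% higher and 0.139% lower), so a count of 0 among 9 sets them no further apart than other genes. At an unadjusted p below 0.05 limma gave 1 of the 9, Lhx2, beside 251 genes higher and 2117 lower of all tested. The adjusted p-values of the 9 ran from 0.215 for Lhx2 to 0.877 for Nfix. Their median log2 fold change was −0.04, against −0.12 for all genes, and 8 of the 9 lay above that median of all genes. After median-of-ratios scaling the 9 had a median of 0.09. All log2 fold changes are on the log2(FPKM + 1) scale, circHIPK2 siRNA over control.

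Nfia, which acts early in gliogenesis, had 12.2, 14.0 and 12.5 FPKM in circHIPK2 siRNA libraries 1 to 3, against 12.0, 12.1 and 8.95 FPKM in control libraries 1 to 3. The groups did not overlap, but circHIPK2 siRNA library 1 and control library 2 were nearly level and control library 3 lay well below the rest. The means were 12.9 ± 0.984 FPKM with the circHIPK2 siRNA and 11.02 ± 1.80 FPKM in the controls (SD, n = 3 each; p = 0.1 in an exact two-sided permutation test, which cannot go lower with 3 libraries against 3). The log2 fold change was 0.22 (SE 0.13, 95% interval −0.08 to 0.51; limma, Benjamini-Hochberg adjusted p = 0.395). Without control library 3 it was 0.09 (adjusted p = 0.779). It was 0.34 with median-of-ratios scaling, 0.34 with quantile normalization and 0.43 without the ribosomal RNA entries, and was not called in any of these. Nfia was the only one of the 9 whose libraries did not overlap before rescaling, where 24.7% of all genes had groups apart, 2.65% entirely higher and 22.1% entirely lower.

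Nfix, the most abundant of the family and a factor of later progenitors and adult stem cell quiescence, had 36.1, 42.7 and 41.1 FPKM with the circHIPK2 siRNA, against 42.6, 39.1 and 35.1 FPKM in the controls. The groups overlapped almost fully. The means were 40.0 ± 3.44 FPKM with the circHIPK2 siRNA and 38.9 ± 3.72 FPKM in the controls (SD, n = 3 each), and the log2 fold change was 0.04 with a 95% interval of −0.22 to 0.29. Nfib, which acts beside Nfia in cortical and hippocampal glia, had 18.8, 18.7 and 19.4 FPKM with the circHIPK2 siRNA, against 17.3, 21.5 and 20.2 FPKM in the controls. The circHIPK2 siRNA libraries lay inside the control range. Nfib had a log2 fold change of −0.04 with an interval of −0.28 to 0.19. Nfic had 12.0, 12.9 and 11.6 FPKM with the circHIPK2 siRNA, against 12.8, 11.5 and 13.4 FPKM in the controls. These groups overlapped as well, and the log2 fold change was −0.05 with an interval of −0.27 to 0.18. After median-of-ratios scaling Nfic had 0.08 and its libraries did not overlap; on that scaling the groups were apart for 20.1% of all genes, 10.1% entirely higher and 10.1% entirely lower, and 2 of the 9 genes, Nfia and Nfic, lay entirely higher. On the FPKM + 1 scale the 95% intervals of Nfix, Nfib and Nfic lay within 0.824 to 1.22 of the control level.

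The make-up of the family was compared within libraries, where library scaling cancels. Nfix supplied 45.7%, 48.4% and 48.6% of the summed NFI FPKM in circHIPK2 siRNA libraries 1 to 3, against 50.3%, 46.4% and 45.2% in control libraries 1 to 3. Nfia supplied 15.4%, 15.9% and 14.7% with the circHIPK2 siRNA, against 14.2%, 14.3% and 11.5% in the controls. The share of Nfia thus lay entirely above the controls, by 1.97 percentage points on average (exact two-sided permutation p = 0.1, the smallest possible), and without control library 3 the difference was 1.05 points. The other 3 shares overlapped between groups. The summed NFI level was 84.0 ± 4.66 FPKM with the circHIPK2 siRNA and 82.2 ± 3.90 FPKM in the controls (SD, n = 3 each; exact two-sided permutation p = 0.6).

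**Figure D2:**
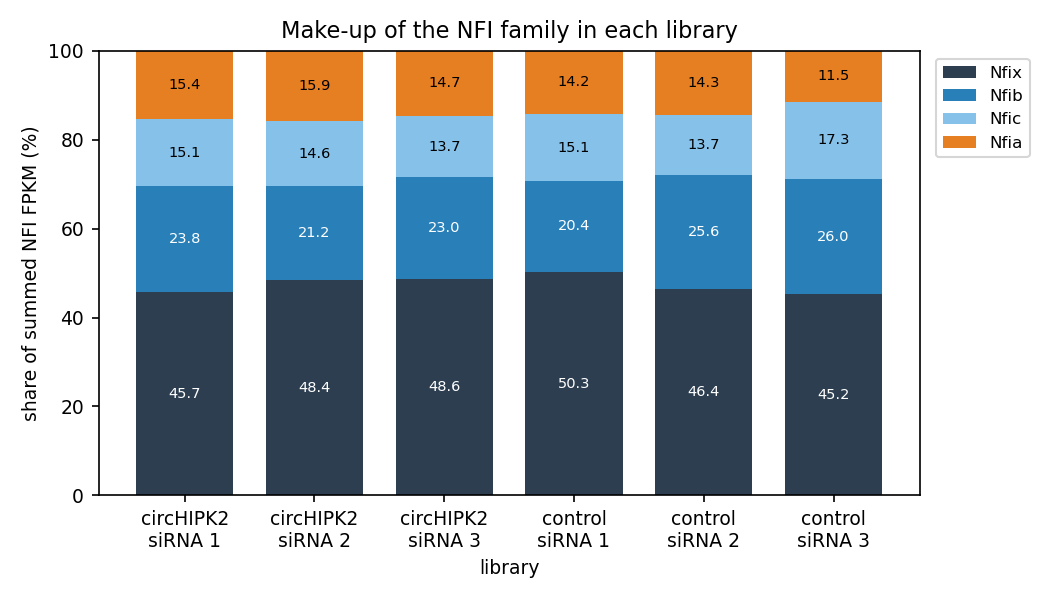
Share of each NFI gene in the summed NFI FPKM of a library, in percent, with the 3 circHIPK2 siRNA libraries left of the 3 control libraries; numbers inside the bars are the shares. Nfix makes up between 45.2% and 50.3% of the family in every library, and the Nfia share of 11.5% in control library 3 is the lowest.

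Ratios to Nfia were taken next. The ratio of Nfib to Nfia was 1.55, 1.34 and 1.56 with the circHIPK2 siRNA, against 1.43, 1.78 and 2.25 in the controls. That of Nfic to Nfia was 0.982, 0.920 and 0.933 with the circHIPK2 siRNA, against 1.06, 0.955 and 1.503 in the controls. That of Nfix to Nfia was 2.97, 3.05 and 3.30 with the circHIPK2 siRNA, against 3.54, 3.24 and 3.93 in the controls. The groups overlapped for all 3 ratios. The mean log2 ratios differed by −0.28, −0.28 and −0.20 (exact two-sided permutation p = 0.3, 0.2 and 0.2; 0.3 for each after Benjamini-Hochberg adjustment over the 3 ratios). Without control library 3 the differences were −0.11, −0.092 and −0.13.

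Lhx2 showed the largest difference of the 9 genes. It had 20.2, 23.1 and 19.2 FPKM in circHIPK2 siRNA libraries 1 to 3, against 34.1, 39.0 and 22.5 FPKM in control libraries 1 to 3. Control libraries 1 and 2 stood well above the other 4 libraries, while control library 3 lay below circHIPK2 siRNA library 2, so the groups overlapped. Lhx2 averaged 20.9 ± 2.02 FPKM with the circHIPK2 siRNA and 31.9 ± 8.52 FPKM in the controls (SD, n = 3 each; p = 0.2, exact two-sided permutation test), a level 1.53-fold higher in the controls. The log2 fold change was −0.56 (SE 0.19, 95% interval −0.98 to −0.13), not past the threshold (limma, Benjamini-Hochberg adjusted p = 0.215). Of all genes tested, 2.51% had a larger absolute log2 fold change. Without control library 3 it was −0.78 (adjusted p = 0.101) and without control library 2 it was −0.40 (adjusted p = 0.319). Without the ribosomal RNA entries it was −0.36 and also not called. In whole cultures, fewer cells that express a gene and less of its RNA per cell cannot be told apart.

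The genes whose profile over the 6 libraries was most like that of Lhx2 were Gnai2, an inhibitory G protein subunit gene, Rplp0, a ribosomal stalk protein gene, and Kyat3, a kynurenine aminotransferase gene. Likeness was the root-mean-square difference between log2(FPKM + 1) values after subtracting each gene's own mean. It was 0.07 for Gnai2, 0.11 for Rplp0 and 0.11 for Kyat3, against 0.37 for a gene with a flat profile, among 11200 genes compared. Gnai2 had 197, 226 and 180 FPKM with the circHIPK2 siRNA, against 290, 380 and 219 FPKM in the controls, with control library 2 highest and control library 3 lowest of the controls, as for Lhx2. None of the 3 was called (limma, Benjamini-Hochberg adjusted p between 0.218 and 0.24). They were picked for this likeness, so their profiles carry no test.

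**Figure D3:**
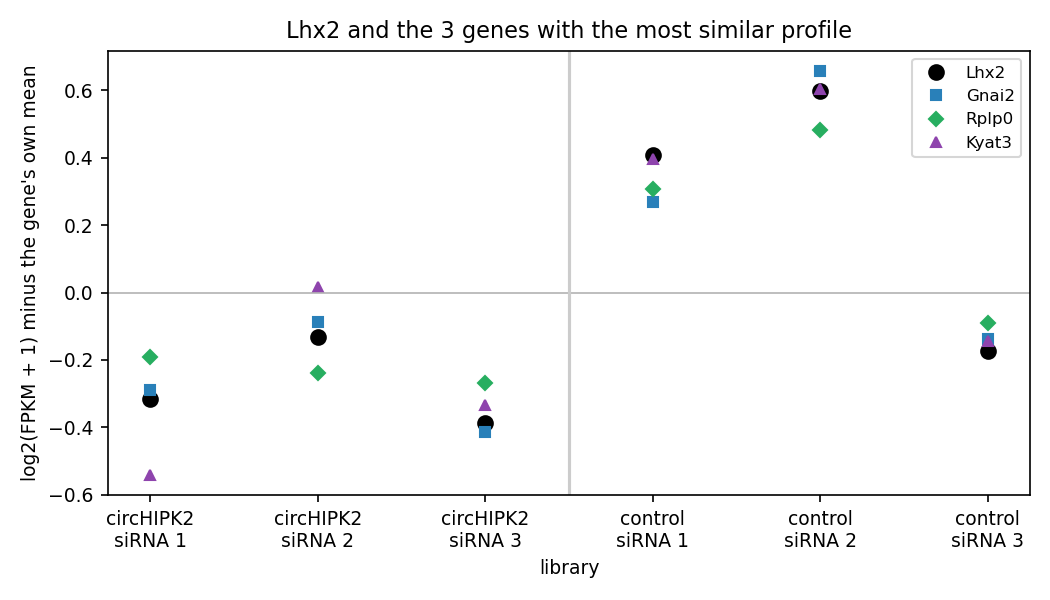
Log2(FPKM + 1) of Lhx2 and of the 3 genes most like it, each minus its own mean, by library, circHIPK2 siRNA left of control; 1 point per gene and library. Control libraries 1 and 2 are high and control library 3 is close to the circHIPK2 siRNA libraries for all 4 genes.

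The other regional factors differed less between groups than between libraries of a group. Emx2 had 8.13, 9.56 and 9.26 FPKM with the circHIPK2 siRNA, against 8.41, 9.74 and 10.2 FPKM in the controls. Its log2 fold change was −0.06 with a 95% interval of −0.31 to 0.18. Nr2e1 had 9.79, 11.6 and 9.01 FPKM with the circHIPK2 siRNA, against 9.59, 11.6 and 10.7 FPKM in the controls. The highest libraries of the groups were almost level, and the log2 fold change was −0.07 with an interval of −0.34 to 0.20. Pax6 had 10.2, 11.3 and 7.53 FPKM with the circHIPK2 siRNA, against 10.6, 8.93 and 8.11 FPKM in the controls. The circHIPK2 siRNA libraries spanned the whole control range, and the log2 fold change was 0.05 with an interval of −0.30 to 0.41.

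Zbtb20 had 2.84, 1.57 and 1.55 FPKM in circHIPK2 siRNA libraries 1 to 3, against 1.55, 2.01 and 1.75 FPKM in control libraries 1 to 3. Only circHIPK2 siRNA library 1 stood apart, and the other 5 lay between 1.55 and 2.01 FPKM. Its coefficient of variation with the circHIPK2 siRNA, 37.2%, was the largest of the 9 genes, against 13.2% in the controls. The log2 fold change was 0.09 with an interval of −0.31 to 0.48, and it was −0.11 without circHIPK2 siRNA library 1. Zbtb20 has 21 annotated transcripts, the longest of 26901 nt, so its FPKM depends on how fragments were divided among them. Zbtb20 is also active in liver, whose markers were at 39.9 to 64.9 FPKM in the controls and at 2.12 to 2.23 FPKM with the circHIPK2 siRNA, and the part of this in its values was not tested.

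**Figure D4:**
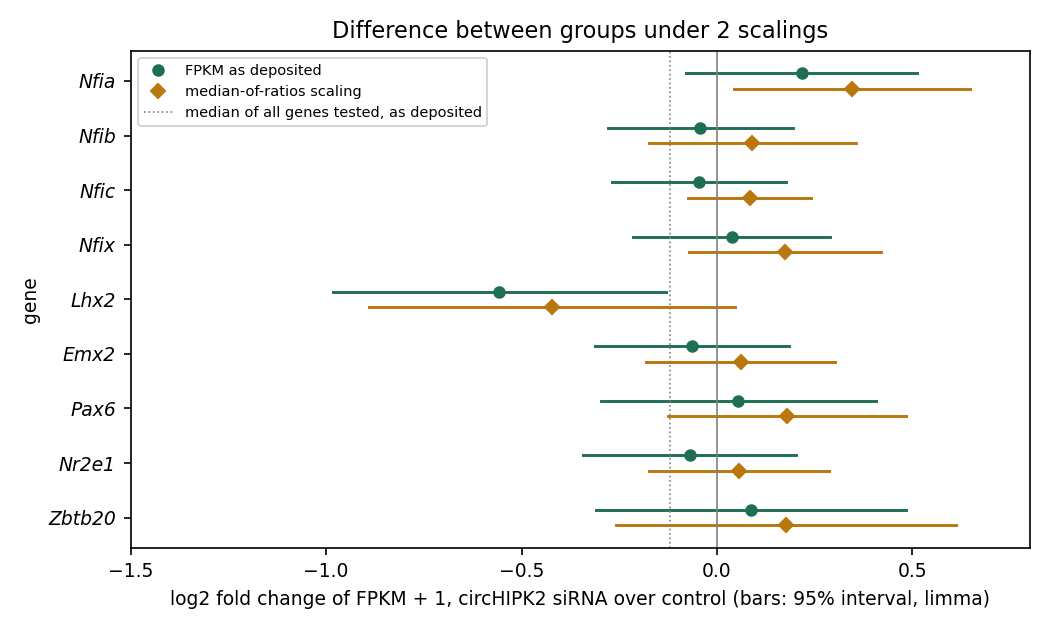
Log2 fold change of FPKM + 1, circHIPK2 siRNA over control, with 95% intervals from limma, for values as deposited (green circles) and after median-of-ratios scaling (orange diamonds); the dotted line is the median of all genes as deposited, −0.12. For Lhx2 the interval as deposited, −0.98 to −0.13, excludes 0 and the rescaled one does not, and for Nfia the reverse holds; neither gene passed after adjustment.

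The regional make-up of the cultures was set beside lists of other factors. Of 26 other forebrain and hippocampal progenitor factors, 14 passed the filter of a mean of 1 FPKM, and 9 averaged at least 10 FPKM. The most abundant was Rfx4, a factor of dorsal midline and hippocampal progenitors, with 49.6 ± 4.33 FPKM with the circHIPK2 siRNA and 50.5 ± 6.90 FPKM in the controls (SD, n = 3 each). Emx1, the paralogue of Emx2 and chosen after its values were seen, had 0.0611 ± 0.0471 FPKM with the circHIPK2 siRNA and 0.0144 ± 0.0231 FPKM in the controls, so only Emx2 of the pair exceeded 1 FPKM. Eomes and Neurog2, factors of neurogenic progenitors also chosen after their values were seen, stayed at or under 0.25 FPKM in every library, and Tfap2c was listed at 0.

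None of the 14 tested factors was called. At an unadjusted p below 0.05 limma gave 1 of them, beside 251 genes higher and 2117 lower of the 13702 tested. The median log2 fold change of the 14 was −0.03. The largest difference was that of Prox1, a homeodomain factor of dentate gyrus granule cells, which had 5.39, 7.04 and 7.48 FPKM with the circHIPK2 siRNA, against 4.83, 5.19 and 5.40 FPKM in the controls. CircHIPK2 siRNA library 1 was just below control library 3, so the groups overlapped. The log2 fold change was 0.31 (SE 0.13; limma, Benjamini-Hochberg adjusted p = 0.27).

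The listed factors of the ventral telencephalon and of midbrain, hindbrain and spinal cord were low in both groups. The lists are not complete. Olig1 and Olig2 were placed among the oligodendrocyte lineage markers instead. They averaged 398 and 203 FPKM with the circHIPK2 siRNA, against 452 and 242 FPKM in the controls. Of the 26 other forebrain and hippocampal factors, 12 also averaged under 1 FPKM. Of 10 ventral telencephalon factors 3 averaged at least 1 FPKM and 0 reached 10 FPKM. Gsx1, a homeodomain factor of the ganglionic eminences, had 1.75, 2.11 and 1.39 FPKM with the circHIPK2 siRNA, against 2.78, 2.12 and 2.68 FPKM in the controls, and was not called (log2 fold change −0.36; limma, Benjamini-Hochberg adjusted p = 0.244). None of the 17 midbrain, hindbrain and spinal cord factors averaged 1 FPKM, and the highest mean among them was 0.565 FPKM. Otx2, a forebrain and midbrain factor placed among the choroid plexus markers and chosen after its values were seen, had 7.90 ± 0.757 FPKM with the circHIPK2 siRNA and 6.92 ± 1.61 FPKM in the controls. Of the other 4 choroid plexus markers, Folr1, Kl and Clic6 stayed under 1 FPKM in every library. Ttr, the transthyretin gene, which is also among the liver markers, had 0.0887, 0.0201 and 0.126 FPKM with the circHIPK2 siRNA, against 3.61, 2.41 and 3.27 FPKM in the controls, and was called lower (limma, Benjamini-Hochberg adjusted p = 0.00153).

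**Figure D5:**
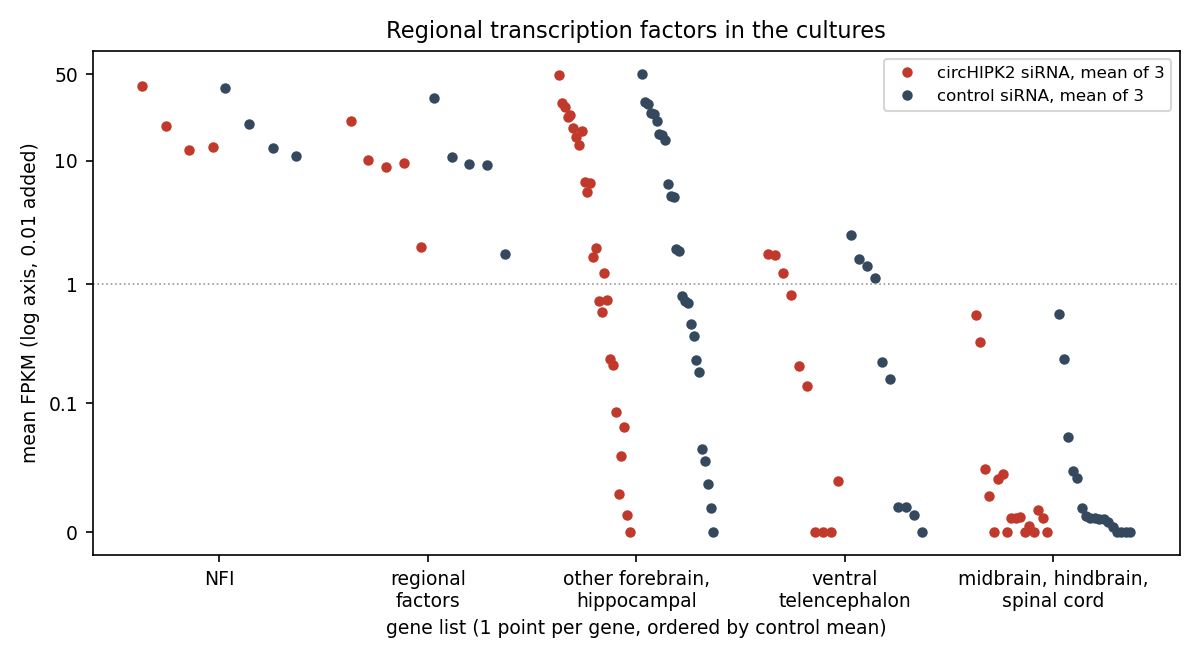
Mean FPKM of each gene (log axis after adding 0.01) in 5 lists of transcription factors, circHIPK2 siRNA in red left of control in dark blue, 1 point per gene and group (n = 3 libraries each); the dotted line marks 1 FPKM. All NFI genes and regional factors lie above 1 FPKM and all 17 midbrain, hindbrain and spinal cord factors below it, in both groups.

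Partner proteins and reported target genes of the 9 factors were examined as lists. Of 16 cofactors, Ldb1, which bridges LIM homeodomain proteins such as Lhx2, was the most abundant, with 48.6 ± 2.76 FPKM with the circHIPK2 siRNA and 51.7 ± 4.87 FPKM in the controls (SD, n = 3 each). None of the 15 cofactors tested was called (3 at an unadjusted p below 0.05, limma), and their median log2 fold change was −0.14, close to the −0.12 of all genes. Ssbp2, a single-stranded DNA binding partner of Ldb1, had 4.78, 8.48 and 4.10 FPKM with the circHIPK2 siRNA, against 7.02, 9.51 and 8.48 FPKM in the controls. CircHIPK2 siRNA library 2 lay within the control range, and the log2 fold change of −0.50 was not called (limma, Benjamini-Hochberg adjusted p = 0.288).

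Of 10 glial genes reported as activated by NFI factors, none was called (2 at an unadjusted p below 0.05, limma), and their median log2 fold change was −0.12. Fabp7 had 881, 793 and 592 FPKM with the circHIPK2 siRNA, against 1127, 1545 and 946 FPKM in the controls. Its groups did not overlap as deposited, as for the 22.1% of all genes that lay entirely lower. After median-of-ratios scaling circHIPK2 siRNA library 1 lay above control library 3, so the groups overlapped. The log2 fold change of Fabp7 was −0.66 as deposited (SE 0.22, limma, Benjamini-Hochberg adjusted p = 0.211) and −0.52 after that scaling. Gfap, the astrocyte intermediate filament gene, had 262, 211 and 83.9 FPKM with the circHIPK2 siRNA, against 76.0, 181 and 70.5 FPKM in the controls. Gfap was high in circHIPK2 siRNA libraries 1 and 2 and in control library 2, so it differed within groups as much as between them (log2 fold change 0.75, SE 0.46; limma, Benjamini-Hochberg adjusted p = 0.411).

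Of 4 progenitor genes reported as repressed by NFI factors, none was called (1 at an unadjusted p below 0.05, limma). Ezh2, the Polycomb methyltransferase gene, had 15.6, 16.2 and 16.6 FPKM with the circHIPK2 siRNA, against 21.2, 22.2 and 22.3 FPKM in the controls. All 3 circHIPK2 siRNA libraries lay below the controls, as for the 22.1% of all genes that lay entirely lower, with little spread in either group. The log2 fold change was −0.42 (SE 0.09; limma, Benjamini-Hochberg adjusted p = 0.128), and of the alternatives run it was called only with library weights (limma, Benjamini-Hochberg adjusted p = 0.0363), which called 55 genes higher and 265 lower in all, against 16 and 19 without them. Sox9, a factor of gliogenic progenitors, had 38.4, 43.2 and 32.0 FPKM with the circHIPK2 siRNA, against 41.5, 39.4 and 39.6 FPKM in the controls, and its groups overlapped. Of 8 genes reported as targets of Nr2e1 or Pax6, 5 were tested and 0 called (2 at an unadjusted p below 0.05, limma). These 2 include Fabp7, which was already counted among the glial genes, so the lists are not independent. The unadjusted counts of all these lists stand beside 251 genes higher and 2117 lower of the 13702 tested.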

How the data were processed

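Poly(A) RNA of mouse neural stem cells, 6 libraries in all, was sequenced from both ends, with strand-marked libraries per the labels' protocols. The authors deposited FPKM values per gene symbol, 1 column per library. The submitters' processing notes name HISAT, StringTie, edgeR and the mm9 build. Versions, annotation and what each tool did are not stated there. Of the symbols, 98.54% occur in GENCODE M21, and 26 had become dates. There were no counts, so the test was limma 3.58.1 (R 4.3.3; linear model with mean-variance trend, two-sided) on log2(FPKM + 1) of the 13702 entries averaging at least 1 FPKM, with Benjamini-Hochberg adjustment over all of them and a threshold of 0.05. Exact permutation tests used scipy 1.17.1. The limma fit was tested on simulated data.

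Depth was estimated from low values of single-transcript genes no shorter than 500 nt, of which 37.6% to 40.8% lay within 0.05 steps of a whole multiple of 1 fragment, against 10% by chance. Smaller steps, at double the depth, held 45.2% to 47%, so the depth is a lower estimate. Intervals cover the spread between libraries only.

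The members, lists and tests were chosen with earlier results of these data known. By rule, the genes named were the 9 members, Hipk2, the most abundant and the most changed tested gene of each list other than the markers, any called ones of those lists, and the 3 genes with the profile nearest to that of the member with the largest change. Outside this rule, Emx2os was named for its overlap with Emx2, marker genes from their lists, and Emx1, Eomes, Neurog2, Tfap2c, Otx2, Ttr, Sp8 and Gli3 after their values were seen. The lists were 8 of transcription factors, cofactors and reported targets, and 9 of cell type markers. The result of 1 list of reported targets is not reported here.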

Additional observations from a re-analysis of the deposited data

How the results depend on the processing

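All 9 genes stayed uncalled under the 18 alternatives run, except that Zbtb20 fell below a minimum mean of 5 FPKM and was not tested there. Lhx2 stayed below 0 (−0.78 to −0.36) and Nfia above 0 (0.09 to 0.43) in all 18. The others lay close enough to 0 for the sign of the log2 fold change to turn. With median-of-ratios scaling, quantile normalization and removal of the ribosomal RNA entries with rescaling, Nfib became 0.090, 0.10 and 0.16, Nfic 0.083, 0.086 and 0.15, Emx2 0.061, 0.053 and 0.13, and Nr2e1 0.056, 0.053 and 0.13; these scalings also moved the median of all genes from −0.12 to −0.0012, 0.0006 and 0.06. With library weights Nfix became −0.049. Leaving out 1 library at a time, log2 fold changes ran from −0.13 to 0.023 for Nfib, −0.033 to 0.11 for Nfix, −0.057 to 0.21 for Pax6, −0.16 to 0.0031 for Nr2e1 and −0.11 to 0.19 for Zbtb20. Over all genes, 16 were called higher and 19 lower. The counts were 10 higher with no filter, 8 lower with a mean of at least 5 FPKM, 3 and 11 with median-of-ratios scaling, 4 and 12 with quantile normalization, 8 higher with robust moderation, and 55 and 265 with library weights. Leaving out 1 library gave 2 to 15 higher and 6 to 23 lower. Ezh2 was the 1 repressed NFI target called with library weights, and Hoxa3, near 0 throughout, the 1 posterior factor called with no filter. The cause was not tested. With the replicate number as a block 23 genes were called higher and 23 lower. Deviations of same-numbered libraries from their group means correlated across genes at 0.046, 0.0152 and 0.133, against −0.166 to 0.117 for differently numbered ones. With 3 libraries a group these values cannot decide whether the numbers pair the libraries. The main fit used no pairing. The 95% intervals show how far 3 libraries a group limit the precision of each log2 fold change.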

Other observations

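Sp8, a zinc finger factor of forebrain patterning chosen after its values were seen, averaged just under the filter of 1 FPKM. It had 1.41, 1.33 and 0.978 FPKM in circHIPK2 siRNA libraries 1 to 3, against 0.634, 0.804 and 0.661 FPKM in control libraries 1 to 3. The groups did not overlap (exact two-sided permutation p = 0.1, the smallest possible), as for the 2.65% of the genes past the filter that lay entirely higher. Sp8 was picked with these values known, so that p carries no test. With no filter Sp8 was not called (limma, Benjamini-Hochberg adjusted p = 0.527). Gli3, also under the filter and likewise named with its values known, had 1.45, 0.384 and 0.391 FPKM with the circHIPK2 siRNA, against 0.319, 0.367 and 0.741 FPKM in the controls, with circHIPK2 siRNA library 1 standing apart as it did for Zbtb20.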
